A study of Mus musculus with 3 samples.

Results

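The genes described here encode the proteins of the cytosolic ribosome in epithelial cells of the mouse intestine. They were taken by symbol from the deposited tables: names made of Rpl or Rps and a number, with an optional a, x or y, plus Rplp0, Rplp1, Rplp2 and Rpsa. Names marked as pseudogenes with -ps were left out. The rule found 76 of the 24346 listed genes, 46 of the large subunit and 30 of the small subunit, and no measured value entered it. RNA sequencing was done on cells that EDTA had released from the large intestine, from the lower small intestine and from the upper small intestine, with a single library for each. The sources used here give no genotype, age, treatment or number of animals for any of them. A strain entry, naming the colorectal cancer model MC38, is attached to the upper library only, so that strain and region cannot be told apart where it is used. Whether the entry is a labelling error is not known. Without replicates no difference below carries a test, and each describes these libraries.

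The ribosome is built from ribosomal RNA and a fixed set of proteins, nearly all present in a single copy per particle, so that the proteins are needed in similar amounts to one another. Their messages are among the most abundant of a cell. They are known for a pyrimidine tract at the capped end, through which mTORC1 and the RNA-binding protein LARP1 control their translation together. In the intestine, the dividing cells of the crypts have a high demand for new ribosomes. Mammalian genomes also hold many copies of these genes made by reverse transcription, which resemble the spliced message and make short reads hard to place.

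The start of several of these genes shows the pyrimidine tract. The RefSeq promoter table (GRCm38.p6) held 56 of the 76 genes. A run was at least 8 C or T bases on the coding strand. It had to touch the 10 bases on either side of an annotated start base. Where a gene had several entries, that with the longest run was kept, so more entries gave more chances. Such a run was found in 27 of the 56 genes (48.2%), against 4362 of 27025 genes of the whole table (16.1%). This is a description of the letters near annotated starts, which may lie away from the starts used in these cells. The 4 longest runs that fit within the 30 bases around the start are printed because they display the tract most fully, with the run in capitals and the start base in the middle.
Rpl7a (chr2:26910792-26910821, plus strand): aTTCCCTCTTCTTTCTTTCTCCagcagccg
Rpl35 (chr2:39005117-39005146, minus strand): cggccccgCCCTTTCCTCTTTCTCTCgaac
Rpl15 (chr14:18270972-18271001, minus strand): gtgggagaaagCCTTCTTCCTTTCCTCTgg
Rpl14 (chr9:120571502-120571531, plus strand): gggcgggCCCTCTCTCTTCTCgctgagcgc
The levels of these 4 genes differed although their tracts are alike. Rpl7a was at 1009, 881 and 771 FPKM and Rpl15 at 268, 249 and 236 FPKM in the large, lower and upper libraries, the order used for all triplets of values below. FPKM are fragments per kilobase of transcript on a scale set by library size, so they can be compared between genes only roughly. The value of a short message depends on the length assumed, and 29 of the 76 genes have a transcript under 500 nt.

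Near-identical copies elsewhere in the genome were searched for, a choice made after values had been seen. How reads that fit several places were treated is not known, and the part of such copies in the values was not tested. The coding sequence of each gene was compared with all GENCODE M21 transcripts (GRCm38, the same assembly as mm10) of genes that are not among the 76. A copy was counted at 95% identity or more over at least 90% of the coding sequence. Of the 76 genes, 73 had at least 1 annotated copy, the median was 6 and the largest number was 56, for Rpl21. Of 560 such pairs, 19 involved a gene listed in the deposited tables, and in 4 of the 19 the copy was itself listed at 100 FPKM or more. In the other 15 pairs no listed gene exceeded 27.8 FPKM. That value was of Med21 in the large library. Its match to Rps26 lies in a retained-intron transcript, so the value of the whole gene is not the level of a copy. The 4 copies were Gm15772 for Rpl26, Gm12191 for Rpl30, Rpl34-ps1 for Rpl34, all annotated as processed pseudogenes, and Rps27rt for Rps27, annotated as protein-coding.

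How alike these pairs are can be read from their sequences, shown because reads from such stretches can be assigned to either gene. Rps27 (chr3:90212522-90213651, minus strand, GRCm38) and Rps27rt (chr9:114982366-114982739, minus strand) share all 255 coding bases, and their transcripts align over 341 bases with 341 identical. The coding sequence of both is given once.
Rps27 and Rps27rt, bases 1 to 255: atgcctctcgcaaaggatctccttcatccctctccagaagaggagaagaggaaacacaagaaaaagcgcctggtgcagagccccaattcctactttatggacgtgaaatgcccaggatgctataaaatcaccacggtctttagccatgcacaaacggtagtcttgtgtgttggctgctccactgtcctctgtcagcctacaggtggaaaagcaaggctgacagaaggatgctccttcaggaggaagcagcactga
Rpl30 (chr15:34440505-34443640, minus strand) and Gm12191 (chr11:49678710-49679057, minus strand) differ at 1 of 348 coding bases, G96A, counted from the first base of the start codon, with the gene's base first and the copy's last. That base is in capitals.
Rpl30, bases 66 to 126: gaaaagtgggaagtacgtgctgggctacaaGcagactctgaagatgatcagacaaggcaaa
Gm12191, bases 66 to 126: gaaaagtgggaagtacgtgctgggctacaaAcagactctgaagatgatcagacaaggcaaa
Rpl26 (chr11:68901583-68906989, plus strand) and Gm15772 (chr5:3236431-3236868, plus strand) differ at 2 of 438 coding bases, C177T and T288C, again in capitals.
Rpl26, bases 147 to 318: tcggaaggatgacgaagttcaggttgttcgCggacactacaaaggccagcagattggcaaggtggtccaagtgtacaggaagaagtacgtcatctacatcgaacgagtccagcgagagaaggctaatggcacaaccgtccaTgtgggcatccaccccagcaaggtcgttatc
Gm15772, bases 147 to 318: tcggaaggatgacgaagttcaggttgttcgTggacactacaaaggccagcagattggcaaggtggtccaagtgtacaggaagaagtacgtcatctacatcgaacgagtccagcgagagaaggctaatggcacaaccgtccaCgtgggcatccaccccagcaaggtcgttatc
Rpl34 (chr3:130726831-130730398, minus strand) and Rpl34-ps1 (chr6:71124610-71124963, plus strand) differ at 2 of 354 coding bases, T132C and C318G.

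The libraries were first checked for what they hold. None of the 11 epithelial markers was listed at 0 in any library, and they had summed levels of 8457, 9037 and 6563 FPKM. The 9 listed T cell markers summed to 12.8, 559 and 552 FPKM, the 7 Paneth cell markers to 37.6, 17808 and 17542 FPKM, and the 11 myeloid markers to 4.50, 40.9 and 20.8 FPKM. The 7 listed markers of B and plasma cells summed to 70.4, 76.6 and 59.3 FPKM, and 5 of the 7 were listed at 0 in the large library. Sdc1, which epithelium also expresses, made up 70.3, 45.9 and 29.2 FPKM of these sums. The 10 stromal and endothelial markers summed to 3.60, 6.75 and 4.12 FPKM and the 6 red cell markers to 20.4, 34.9 and 23.0 FPKM. The small intestinal libraries thus carried more transcripts of T cells and Paneth cells than the large intestinal library, and the part of this in the results below was not tested. In such bulk samples fewer cells of a type and less RNA per cell cannot be told apart.

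Ribosomal protein genes were among the most abundant of every library. Their medians were 927, 869 and 786 FPKM, against medians of 11.8, 11.9 and 12.03 FPKM over all genes at 1 FPKM or more. Of the 76 genes, 71 ranked among the 500 most abundant listed genes in each library, and 40, 34 and 27 ranked among the first 100. Together they held 13.2%, 10.4% and 8.81% of the summed FPKM. The sums of all genes were 521651, 646262 and 693218 FPKM, beside ribosomal sums of 68843, 67295.5 and 61059 FPKM. Small subunit genes had medians of 1003, 952 and 888 FPKM and large subunit genes of 814, 797 and 722 FPKM.

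**Figure D1:**
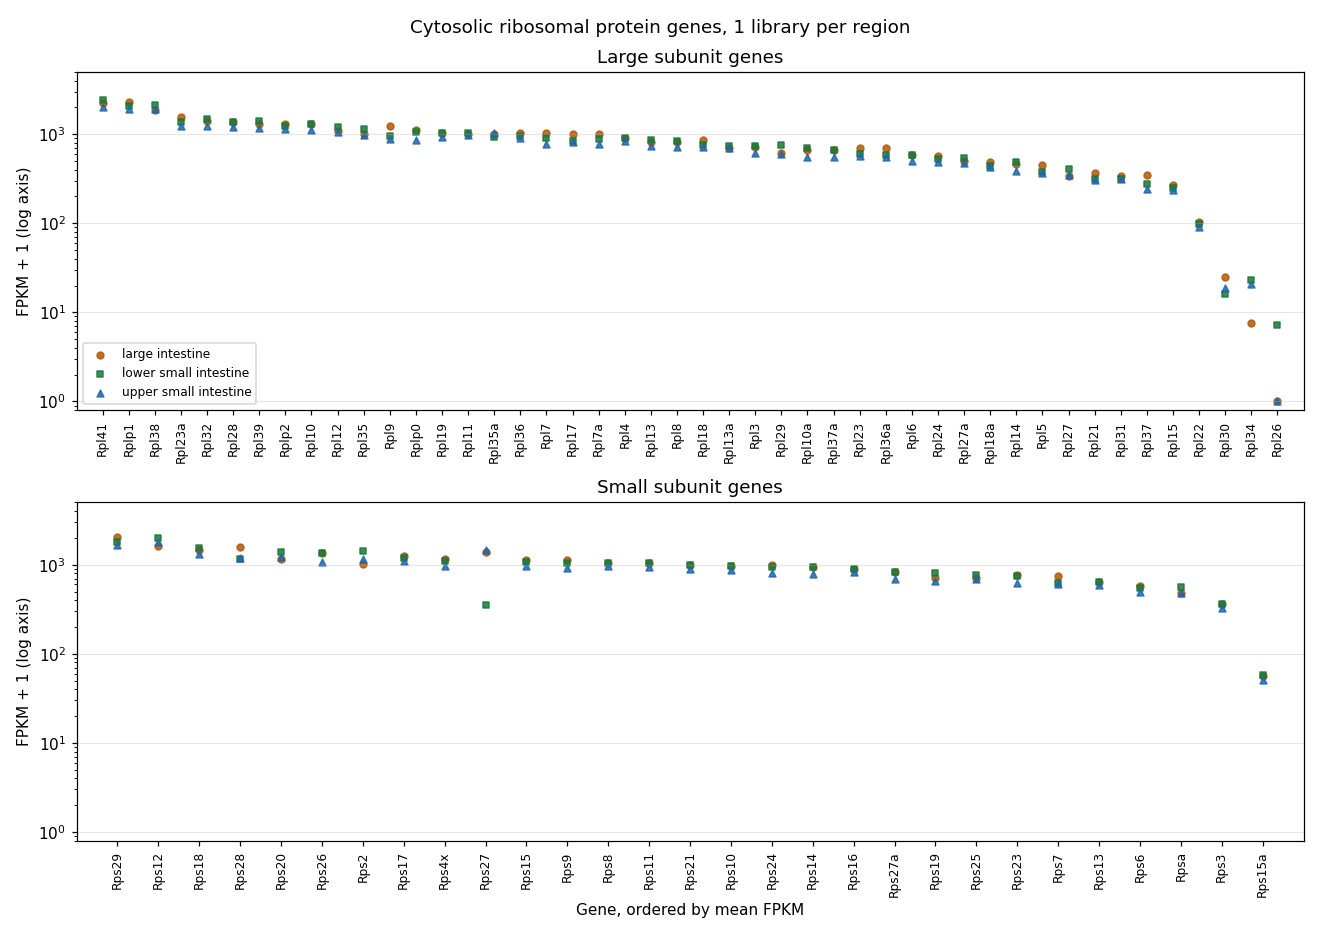
Level of 46 large subunit genes (top) and 29 of the 30 small subunit genes (bottom) in the 3 libraries, as FPKM + 1 on a log axis, ordered by mean. The 3 points of a gene nearly coincide for most genes, and Rpl30, Rpl34 and Rpl26 lie far below the rest. Rpl22 and Rps15a lie between, and Rps27 is low in the lower small intestinal library.

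Levels spread over less than an order of magnitude once the 5 lowest genes are set aside. Among the 71 genes with a mean of 100 FPKM or more, the highest mean was 8.86 times the lowest, and 57 had a mean between 500 and 1500 FPKM. Above 1500 FPKM stood 5 genes. Rpl41, whose coding sequence of 78 bases is the shortest of the set, was at 2255, 2412 and 2002 FPKM. Rplp1 was at 2293, 2091 and 1922 FPKM and Rpl38, a protein known for effects on translation of Hox messages, at 1873, 2100.1 and 1913 FPKM. Rps29, a zinc-binding protein of the small subunit, was at 2025, 1798 and 1672 FPKM and Rps12 at 1617, 1989 and 1796 FPKM. Across the 76 genes the mean level had a Spearman rho of -0.18 with the length of the shortest annotated transcript and of -0.0034 with the number of annotated copies, both given as descriptions. The level order was nearly the same in all libraries, with rho of 0.93 between large and lower, 0.97 between large and upper and 0.94 between upper and lower. The libraries share gene lengths and annotation.

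At the low end stood 5 genes with a mean below 100 FPKM. Rpl26, which lies near the exit of the peptide tunnel, was listed at 0, 6.14 and 0 FPKM. It was the only one of the 76 listed at 0 in any library. Rpl34 was at 6.69, 22.3 and 19.9 FPKM and Rpl30, which binds its own transcript to control splicing in yeast, at 23.8, 14.99 and 17.7 FPKM. These are the 3 genes whose processed pseudogene was listed at a high level. Gm15772 stood at 1355, 1195 and 1064 FPKM, Gm12191 at 1071, 1068 and 894 FPKM and Rpl34-ps1 at 943, 999.98 and 856 FPKM. The pseudogenes thus stood at the usual level of ribosomal protein genes while the genes themselves stood far below it. Whether the low values of these 3 genes are failed estimates was not tested, so they are not read as the output of the genes. Gm15772 made up 100%, 99.5% and 100% of the sum of its pair, Gm12191 97.8%, 98.6% and 98.1% and Rpl34-ps1 99.3%, 97.8% and 97.7%. Rps15a was at 55.1, 56.3 and 49.7 FPKM, and its listed copies Rps15a-ps6 and Rps15a-ps4 did not exceed 1.23 FPKM in any library. Rpl22, a protein also known in T cell development, was at 102, 98.3 and 89.6 FPKM, and no near-identical copy of it was listed.

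**Figure D2:**
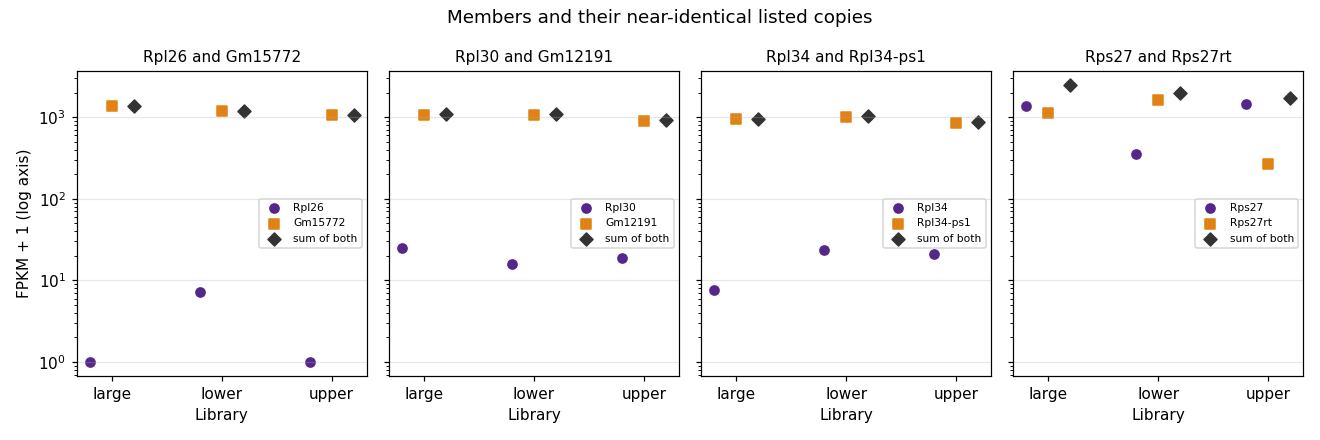
FPKM + 1 on a log axis in the large, lower and upper libraries for 4 ribosomal protein genes (circles), their near-identical listed copy (squares) and the sum of both (diamonds). For Rpl26, Rpl30 and Rpl34 the copy carries nearly the whole sum in every library, while Rps27 and Rps27rt trade places between the lower and upper libraries.

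The pair of Rps27 and Rps27rt was divided differently in each library. Rps27, a small subunit protein with a zinc finger, was at 1371, 350.3 and 1462 FPKM, and Rps27rt was at 1135, 1641 and 268 FPKM. Where Rps27 was low, in the lower small intestine, Rps27rt was at its highest. Rps27rt held 45.3%, 82.4% and 15.5% of the pair's sum, and the sum itself was 2506, 1992 and 1730.2 FPKM. On the log2(FPKM + 1) scale Rps27 differed by 1.97 between large and lower and by 2.06 between upper and lower, while the sum differed by 0.33 and -0.20. Rps27rt differed by -2.61 between upper and lower. Since the transcripts are identical over their aligned length, the division between the entries cannot be read as the output of either locus. A sum of FPKM weighs each entry by its own length and is an approximation to a joint level.

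The large and the lower small intestine were then compared across the whole set. Each difference is on the log2(FPKM + 1) scale, with the second library subtracted from the first, and a gene was measured if it reached 1 FPKM in either. All 76 genes were measured, and their median difference was 0.01, beside 0.00 over all 12376 measured genes. A difference of at least 1, a 2-fold ratio, was reached by Rps27 as higher and by Rpl26 and Rpl34 as lower in the large intestine, so 1 of 76 was higher and 2 were lower. Among all measured genes 9.75% were higher and 10.5% lower, and among those with a mean of 100 FPKM or more, ribosomal genes included, 10.3% were higher and 18.1% lower. Within 0.5 of 0 were 72 of 76 ribosomal protein genes (94.7%), against 57.4% of all measured genes and 49.6% of the abundant ones. Above 0 were 44 of 76, against 50% of all measured genes and 41.6% of the abundant ones. Rpl30, with a difference of 0.63, was the other gene beyond 0.5. The 3 genes past 2-fold all belong to the pairs described above. When the 4 genes were summed with their copies, a choice made after the values were seen, none of the 76 reached 2-fold in any of the 3 comparisons.

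Below 2-fold, some genes of both subunits differed between these libraries. Rps2, which lines the entry of the messenger RNA channel, stood at 1027, 1439 and 1149 FPKM. The large library had 0.714 times the level of the lower one (0.693 to 0.735). This Clopper-Pearson 95% interval, like the others, rests on implied reads explained at the end and covers counting error only. Rps12, with a ratio of 0.813 (0.780 to 0.847), and Rps20, at 1172, 1400.04 and 1212 FPKM, also had their lowest value in the large intestine. In the other direction Rps28 was at 1579, 1170.1 and 1198 FPKM, with a ratio of 1.35 (1.23 to 1.48) to the lower library. Rpl9 was at 1231, 947 and 880.1 FPKM, with a ratio of 1.30 (1.25 to 1.35), and Rpl37 at 346, 272 and 243 FPKM, with a ratio of 1.27 (1.14 to 1.42). As deposited, these differences exceeded counting error and were smaller than 1.5-fold. The intervals leave out scaling. Bringing the libraries to the same sum without short RNA genes multiplies the large values by 1.147 and the lower values by 0.947. Every ratio of large to lower rises with it, so neither the 1.5-fold bound nor a lowest value in the large intestine need hold there. Whether they exceed the spread between animals cannot be known from single libraries.

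Against the upper small intestine, ribosomal protein genes were slightly higher in the large intestine. The median difference over the 75 measured genes was 0.18, beside 0.00 over all 12350 measured genes, and 67 of 75 were above 0 (89.3%), against 50% of all measured genes and 40.6% of the abundant ones. Only Rpl34 passed 2-fold, as lower, so 0 of 75 were higher and 1 was lower, where 11.2% and 11.7% of all measured genes and 9.92% and 20.2% of the abundant ones were. Within 0.5 of 0 were 73 of 75 (97.3%), against 55% of all genes measured and 49.1% of the abundant ones. Rpl37 had the largest difference in favour of the large intestine, 0.51, with a ratio of 1.42 (1.25 to 1.62). Rpl9 followed with 0.48 and a ratio of 1.40 (1.34 to 1.46), and then Rpl30 with 0.41 and Rps28 with 0.40. Rpl7 was at 1022, 910.2 and 783 FPKM and Rpl7a at 1009, 881 and 771 FPKM. Apart from Rpl34, the lowest differences were those of Rps2 at -0.16, Rps12 at -0.15 and Rps27 at -0.09.

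Between the 2 parts of the small intestine nearly all genes of the set were lower in the upper library, by similar small amounts. The median difference, upper minus lower, was -0.16 over 76 genes, beside -0.03 over all 11941 measured genes. Below 0 were 72 of 76 (94.7%), against 53.9% of all measured genes and 49.7% of the abundant ones. The middle part of the set, between its quartiles, ran from -0.23 to -0.10, against -0.22 to 0.20 over all genes. Only Rps27 was past 2-fold as higher and only Rpl26 as lower, 1 of 76 each, where 3.92% and 2.92% of all measured genes and 8.54% and 5.19% of the abundant ones were. Within 0.5 of 0 were 74 of 76 (97.4%), against 79.9% of all measured genes and 70.2% of the abundant ones. The 4 exceptions above 0 were Rps27, Rpl30, Rpl35a and Rps28. Rpl35a was at 1000.5, 931 and 1021 FPKM, with an upper to lower ratio of 1.10 (1.03 to 1.16), and the intervals of Rps28 and Rpl30 included 1. Besides Rpl26, the lowest differences were those of Rpl14, at 467, 492 and 382 FPKM, and Rpl10a, at 669.7, 699.97 and 553 FPKM. The comparisons share libraries and are not independent of one another. Of the 76 genes 65 had their lowest value in the upper library, where 28.2% of the abundant genes did.

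**Figure D3:**
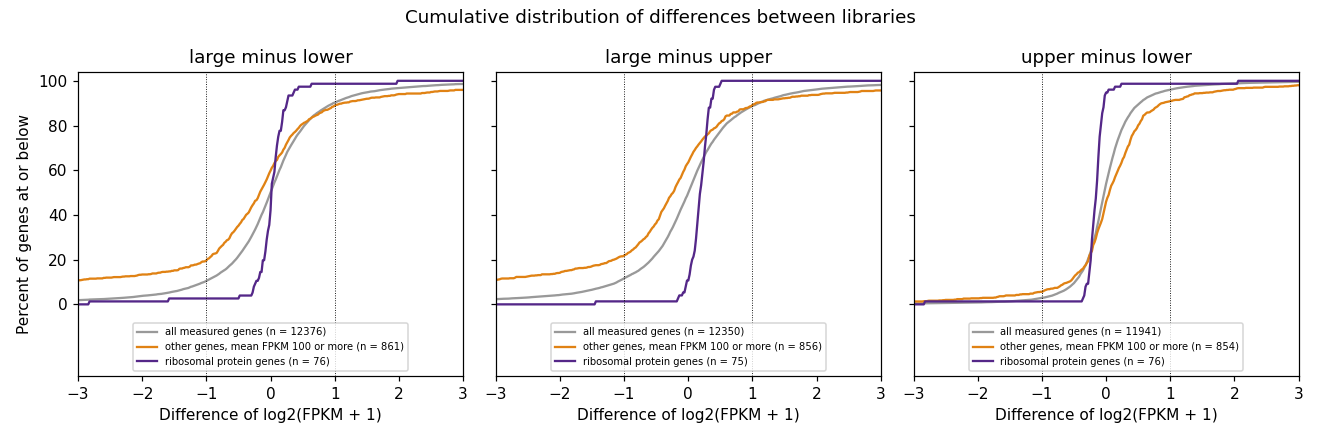
Cumulative percent of genes (vertical axis) at or below each difference of log2(FPKM + 1) (horizontal axis) in the 3 comparisons, for all measured genes, for other genes with a mean of 100 FPKM or more, and for the ribosomal protein genes. Dotted lines mark 2-fold. The curve of the ribosomal protein genes climbs within a narrow range, around 0.01, 0.18 and -0.16, while the others spread past 2-fold on both sides.

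The size of the shared shift depends on how libraries are scaled. When each library was brought to the same sum without short RNA genes, the medians of the set became 0.29, 0.48 and -0.18, and the medians over all measured genes moved to 0.25, 0.27 and -0.05. Relative to all measured genes the set stood at 0.01, 0.18 and -0.13 as deposited and at 0.04, 0.21 and -0.13 after rescaling. The same rescaling raised the share of 2-fold calls that were higher in the large intestine, over all genes, from 48.2% to 62.3% against the lower part and from 49% to 64% against the upper. The sign of the median of the set was the same under both scalings in each comparison. In large against lower, however, the deposited median was too near 0 to give a direction. Without genes with a transcript under 500 nt it was -9.0e-05 over 47 genes. The direction of single genes was not always the same: 44 of 76 were above 0 in large against lower as deposited and 72 after rescaling.

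Genes picked by their role in the ribosome, with values known, are given next. The stalk proteins, which recruit the elongation GTPases, all had their highest value in the large and their lowest in the upper library. Rplp0, the base of the stalk, was at 1109, 1066 and 864 FPKM and Rplp2 at 1309, 1244 and 1129 FPKM, beside Rplp1 given above. Their differences between large and upper were 0.36, 0.25 and 0.21 for Rplp0, Rplp1 and Rplp2. Rpl5 and Rpl11, which carry 5S ribosomal RNA and bind Mdm2 when assembly fails, were at 449, 375 and 367 FPKM and at 991, 1016 and 965 FPKM. Rpl10, which joins the large subunit late, was at 1282, 1282 and 1109.5 FPKM. Rpl39, a short protein of the exit tunnel, was at 1287, 1409.8 and 1166 FPKM. As deposited, in none of these 7 genes did any pair of libraries differ by 1.5-fold.

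Small subunit proteins with known further roles behaved likewise. Rps6, the substrate of S6 kinase, was at 569, 546 and 489 FPKM. Rps3, at the entry of the messenger RNA channel, was at 364, 360.5 and 327 FPKM. Rps27a, made as a fusion with ubiquitin, was at 828, 824 and 694 FPKM, and Rps19, a gene mutated in Diamond-Blackfan anaemia, at 709, 797 and 659 FPKM. Rpsa, also known as a laminin receptor precursor, was at 484, 567 and 483 FPKM. Each was lowest in the upper library, and Rpsa and Rps19 were highest in the lower one. The 76 genes lie on 19 chromosomes. The 4 on the X chromosome, Rpl10, Rpl36a, Rpl39 and Rps4x, were at levels within the range of the others, with Rpl36a at 704, 583 and 555 FPKM and Rps4x at 1158, 1091 and 961 FPKM.

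Ribosomal proteins outside the naming rule stood at similar levels. Fau, encoding a ubiquitin-like fusion of a small subunit protein, was at 870.2, 882 and 923 FPKM. Rps3a1 was at 1069, 983 and 951 FPKM and Gnb2l1, which encodes the scaffold RACK1, at 721, 719.99 and 618 FPKM. None of these 3 passed 2-fold in any comparison, and Fau differed from the other two in having its highest value in the upper library.

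Other genes of translation and ribosome assembly moved less uniformly in the comparisons of the large intestine. Their lists were chosen with earlier results of these data known. In upper against lower, all 24 translation factors and all 30 biogenesis genes lay within 0.5 of 0, the latter with a median of -0.08. There 74 of 76 ribosomal protein genes did so, and 79.9% of all measured genes. Of 24 translation factors none passed 2-fold in any comparison, with medians of 0.01, 0.13 and -0.09. Over all measured genes, 9.75% were higher and 10.5% lower in large against lower, 11.2% and 11.7% in large against upper, and 3.92% and 2.92% in upper against lower. The factors include Eef1a1, the elongation factor that delivers aminoacyl-tRNA, at 3763, 3384 and 2911 FPKM, and Eef2 at 973, 770.05 and 757 FPKM. Of 30 genes of ribosome biogenesis, 3 were lower and none higher than 2-fold in the large against the lower small intestine, with a median of -0.53. That count is near the background, since 10.5% of all measured genes were lower in this comparison. The 3 were Nolc1 at 10.7, 24.2 and 20.8 FPKM, Gnl3, the nucleolar protein nucleostemin, at 13.2, 28.8 and 24.1 FPKM, and Nop56, a core protein of box C/D snoRNPs, at 26.9, 55.5 and 49.3 FPKM. Against the upper part none of the 30 passed 2-fold and the median was -0.39. After rescaling to the same sum, none of the 30 passed 2-fold in either comparison and the medians were -0.26 and -0.12. Among 18 cell cycle genes, 15 passed 2-fold as lower in the large library when set against the lower library and 13 when set against the upper one, beside 10.5% and 11.7% of all measured genes, with medians of -1.37 and -1.24. Rescaling made these counts 13 and 9 and the medians -1.12 and -0.96. The biogenesis and cell cycle medians thus lay below 0 where those of the ribosomal proteins, 0.01 and 0.18, did not, in both scalings, and the difference between these lists was not tested.

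**Figure D4:**
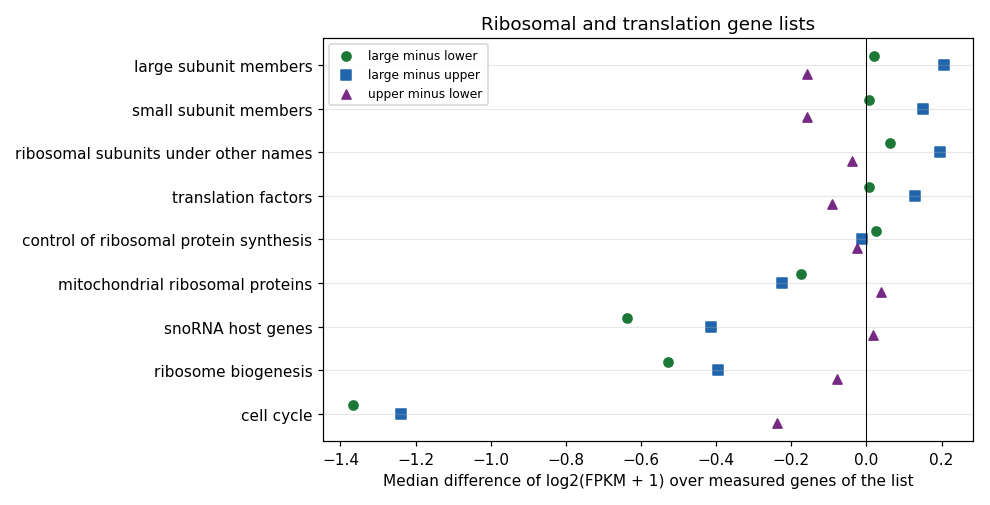
Median difference of log2(FPKM + 1) over the measured genes of 9 lists (rows) in the 3 comparisons (symbols). Both ribosomal subunits lie near 0 or slightly above it in the comparisons of the large intestine, while ribosome biogenesis and cell cycle genes lie at -0.53 and -1.37 against the lower part.

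Mitochondrial ribosomal proteins, the counterpart set inside mitochondria, were 77 genes of lower level, with sums of 2914, 3139 and 3359 FPKM. Their medians were -0.17, -0.22 and 0.04 as deposited and 0.10, 0.06 and 0.02 after rescaling to the same sum, so their sign in the comparisons of the large intestine turned with the scaling. Of the 77, 1 was higher and none lower past 2-fold against the lower part, and 1 was higher and 1 lower against the upper. All measured genes were higher in 9.75% and 11.2% and lower in 10.5% and 11.7% of cases in these comparisons. The higher one was Mrps6 both times, at 71.7, 22.2 and 18.1 FPKM, and the lower one was Mrpl15, at 11.2, 19.8 and 23.9 FPKM. After rescaling Mrpl15 no longer passed 2-fold.

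Depth was read from the spacing of low values. In listed genes with a single annotated transcript of 500 to 1500 nt, FPKM was multiplied by the transcript length less 200 nt. The products fell near whole multiples of 0.112, 0.0845 and 0.130 FPKM times kilobase per read. Of 240, 251 and 237 such genes, 78.8%, 74.1% and 77.6% lay within 0.15 of a multiple. With the full length, the best steps were 0.134, 0.1035 and 0.156, and 58.4%, 54% and 60.6% of 214, 250 and 216 genes did so. The steps were chosen to maximise these shares. With these steps and the shortest annotated transcript at least as long as the coding sequence, the 71 genes with a mean of 100 FPKM or more stood on 328 to 14613 implied reads in a library, with a median of 3035. Rpl34 stood on about 17, 73 and 42 reads and Rpl30 on about 40, 33 and 26, so their ratios are wide. That of Rpl34 between large and lower was 0.300 (0.171 to 0.529). Without molecular identifiers, reads may stem from the same molecule. With 200 nt subtracted from the length in this fit, the FPKM of the shortest messages, such as Rps28 at 271 nt, depends most on the length assumed.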

How the data were processed

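The authors deposited 1 table per library with 1 value per gene. The values were taken as FPKM, a unit inferred from the tools, since the deposited headers give none. The quantifier named, per the submitters' processing notes, is Cufflinks 2.2.1, beside TopHat2 2.0.13, Bowtie2 2.2.3 and SAMtools 0.1.19, with the build mm10. Per the labels' protocols, cells were shaken in 5 mM EDTA, RNA was column-purified and stranded mRNA libraries were made. Not given in the sources used here: annotation, strand setting and the treatment of reads with several positions.

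From these values differences of log2(FPKM + 1) were computed with pandas 2.3.3 on Python 3.11.15, and genes at 1 FPKM or more in either library were counted as measured. Calls are by size, at a difference of 1, without a test, since each region has 1 library. The computation was tested on simulated data. Copies were searched for with BLAST 2.17.0 among GENCODE M21 transcripts, a search chosen after values had been seen. The genes of the set, the lists and the alternatives were chosen with earlier results of these data known. Named genes are the stalk genes, those past 2-fold, the 5 highest and 5 lowest by mean, genes at 0, and listed relatives. Genes with the 3 largest and 3 smallest signed differences of each comparison are also named. Others were chosen by their role, with values known. Single values of some genes are not reported here. The alternatives were a pseudocount of 0.1, filters of 5 FPKM or none, 2 rescalings and the removal or summing of some genes.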

Additional observations from a re-analysis of the deposited data

How the results depend on the processing

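Each region had a single library, so leaving out a replicate could not be done, and no paired analysis was possible because there is 1 library per region. Few implied reads stood behind Rpl26, Rpl30 and Rpl34, whose near-identical copies were listed at high levels. Summing the 4 genes with their listed copies, or leaving those 4 out, both chosen after the data were seen, changed the number past 2-fold to 0 in each comparison and direction that had any: from 1 higher and 2 lower in large against lower, from 1 lower in large against upper, and from 1 higher and 1 lower in upper against lower. Leaving out genes with a transcript under 500 nt also gave 0 in all of these. That had to follow, since Rps27, Rpl34 and Rpl26, with transcripts of 279, 477 and 490 nt, were the only genes past 2-fold. Leaving out the 4 genes with listed copies likewise removes every gene past 2-fold, so neither removal is a check on the counts. Without Rpl26, listed at 0 in the large and upper libraries, 1 was lower in large against lower and 0 in upper against lower. A pseudocount of 0.1, filters of 5 FPKM or none and rescaling to the same median of expressed genes left these counts within 1.5-fold. Rescaling to the same sum without short RNA genes moved the median of the set from 0.01 to 0.29 in large against lower and from 0.18 to 0.48 in large against upper. The share of summed FPKM became 14.3%, 12.6% and 11% without the 10 most abundant other genes of the large, lower and upper libraries, and 10% in the upper library without short RNA genes. With a run of 6 or more, 62.5% of the 56 matched genes had a pyrimidine tract, against 33.5% of all genes of the table.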

Other observations

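Paralogs of ribosomal proteins differed widely in level. Rpl10l and Rpl39l, retrogenes known from the male germ line, were listed at 0 in all libraries, and Rpl3l, a paralog of striated muscle, did not exceed 0.108 FPKM. Rpl22l1 was at 200.3, 227 and 224 FPKM in the large, lower and upper libraries, and so was above its partner Rpl22 at 102, 98.3 and 89.6 FPKM in each. Rpl36al was at 342, 427 and 352 FPKM and Rps27l, a paralog known as a p53 target, at 223, 347 and 325 FPKM. Rpl7l1 was at 20.6, 29.4 and 25.8 FPKM. Rps4l, annotated as a transcribed processed pseudogene, was at 15.02, 38.2 and 48.1 FPKM, with differences of -1.29 and -1.62 in large against lower and against upper. Leaving aside Rps27rt, it was the only gene of this list past 2-fold.

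None of 15 genes that control ribosomal protein synthesis passed 2-fold in any comparison, where 9.75% of all measured genes were higher and 10.5% lower in large against lower, 11.2% and 11.7% in large against upper, and 3.92% and 2.92% in upper against lower. With so few genes a count of 0 is not far from these shares. Myc, a transcription factor that drives ribosome production, was at 15.6, 25.4 and 20.6 FPKM and Larp1 at 29.6, 38.4 and 39.1 FPKM. Eif4ebp1, a translation repressor under mTORC1, was at 8.46, 16.3 and 12.7 FPKM. Of 7 hosts of snoRNA genes none was past 2-fold against the lower part and 2 were lower against the upper, where 11.7% of all measured genes were, Snhg3 at 25.2, 50.7 and 58.1 FPKM and Snhg8 at 10.6, 19.8 and 23.3 FPKM. After rescaling to the same sum neither passed 2-fold.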
